A study of Mus musculus with 30 samples.

Results

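The genes of the perineuronal net were followed in the denervated cervical spinal cord after a cortical stroke. The set was chosen by gene symbol: the 4 lecticans Acan, Bcan, Ncan and Vcan, the link proteins Hapln1, Hapln2 and Hapln4, the cross-linker Tnr, the hyaluronan synthase Has2 and the receptor Ptprs. Of these 10 genes, 9 were measured among 16995 genes in all, and Has2 was not analysed here. The animals were adult C57BL/6 mice (C57BL/6J in the study's methods), and the labels name no transgene or deletion in any group. Stroke animals received Rose Bengal and illumination of the skull over the right sensorimotor cortex and were taken at 4, 7, 14, 28 or 42 days post injury (dpi). Sham animals, labelled Ctrl, had the operation without a stroke. RNA came from the intermediate laminae at spinal levels C5/C6, trimmed by hand from the hemicord that had lost its corticospinal input, so each value is a mean over all cell types of that tissue. Values of 29 animals were used, 4 at 4 dpi and 5 in each other group, 1 animal labelled 4 dpi (A9-3) having no values here.

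Perineuronal nets are lattices of extracellular matrix around the soma and proximal dendrites of certain neurons, in the spinal cord many motoneurons and some interneurons. Hyaluronan chains made at the cell surface carry lecticans, which are chondroitin sulfate proteoglycans, link proteins clamp the lecticans to hyaluronan, and tenascin-R cross-links the lecticans at their other end. Nets stabilize synapses and limit sprouting, and the receptor tyrosine phosphatase encoded by Ptprs binds chondroitin sulfate and mediates its inhibition of axon growth.

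The lecticans and link proteins lie side by side in the genome. In the mm10 positions of the table, Vcan (chromosome 13, 89655312 to 89742509, minus strand) is followed by Hapln1 (89540636 to 89611832, plus strand) with a gap of 43479 bases, and Ncan (chromosome 8, 70093085 to 70120873, minus strand) by Hapln4 (70083457 to 70090862, plus strand) with a gap of 2222 bases. Bcan (chromosome 3, 87987531 to 88000230) and Hapln2 (88021750 to 88027583) share the minus strand at a gap of 21519 bases. Acan (chromosome 7, 79053483 to 79115099, plus strand) ends 2 bases before Hapln3 on the other strand. No gene of the table lies in any of these 4 gaps. Tnr (chromosome 1, 159523769 to 159931729, plus strand) and Ptprs (chromosome 17, 56412431 to 56476483, minus strand) have no such partner.

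The stretches upstream of 5 genes are shown because 4 of them, Acan, Ncan, Tnr and Ptprs, rose together between 14 and 28 dpi, while Hapln2 was the member that was lower at 28 dpi than in sham. Each is the stretch of up to 250 bases before the RefSeq start (GRCm38.p6), without bases that GENCODE M21 places inside the gene, read 5′ to 3′ on the strand of the gene. They are Acan chr7:79052976-79053225 (plus), Ncan chr8:70120874-70121094 (minus), Tnr chr1:159523519-159523768 (plus), Ptprs chr17:56476484-56476730 (minus) and Hapln2 chr3:88027584-88027761 (minus). Capitals mark matches, on either strand, to the GC box GGGCGG or the E-box CACGTG.
Acan: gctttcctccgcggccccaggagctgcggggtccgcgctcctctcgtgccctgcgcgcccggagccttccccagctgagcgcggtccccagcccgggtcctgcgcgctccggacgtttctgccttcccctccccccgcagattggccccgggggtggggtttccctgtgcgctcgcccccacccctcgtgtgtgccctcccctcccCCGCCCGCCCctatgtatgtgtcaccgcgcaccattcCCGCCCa
Ncan: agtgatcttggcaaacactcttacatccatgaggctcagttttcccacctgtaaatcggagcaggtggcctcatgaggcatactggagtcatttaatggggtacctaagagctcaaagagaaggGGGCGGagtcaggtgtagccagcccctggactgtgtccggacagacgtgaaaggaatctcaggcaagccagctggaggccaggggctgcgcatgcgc
Tnr: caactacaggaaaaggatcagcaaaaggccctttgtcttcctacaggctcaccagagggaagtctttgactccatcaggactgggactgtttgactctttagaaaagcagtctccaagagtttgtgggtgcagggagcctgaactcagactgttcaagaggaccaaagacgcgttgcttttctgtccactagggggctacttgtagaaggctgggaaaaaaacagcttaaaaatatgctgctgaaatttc
Ptprs: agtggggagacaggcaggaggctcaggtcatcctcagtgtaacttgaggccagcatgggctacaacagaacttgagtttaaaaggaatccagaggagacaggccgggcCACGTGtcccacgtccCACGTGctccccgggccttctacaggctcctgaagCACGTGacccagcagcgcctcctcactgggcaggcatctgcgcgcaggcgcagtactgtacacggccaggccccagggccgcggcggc
Hapln2: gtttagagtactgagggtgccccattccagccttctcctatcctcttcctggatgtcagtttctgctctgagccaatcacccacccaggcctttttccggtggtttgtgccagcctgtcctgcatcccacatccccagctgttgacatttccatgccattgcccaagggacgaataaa

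The stretches of the genes that rose together differed in composition. In the 250 bases before the start, the GC content was 74.4% for Acan, higher than in 95.4% of 32851 RefSeq promoters, and 46.8% for Tnr, against a median of 52.4%. GC boxes, present in 32.7% of all promoters over the full 250 bases, occurred 3 times for Acan, 2 of them overlapping, 1 time for Ncan and not in the Tnr, Ptprs or Hapln2 windows. The E-box, present in 6.02% of promoters, occurred 3 times before Ptprs and in none of the other 4 windows. The letters TGACGTCA, found in 1.55%, were absent from all 5 windows, and TATAAA, found in 12.4%, occurred 1 time, in the bases before the Ncan start that GENCODE M21 counts as part of the gene and that are not printed. A match is a description of the letters and not a binding site. RefSeq promoters were matched for 8 of the 9 genes, and no other window is printed.

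Values are given in the authors' normalized CPM (counts scaled to a common library size), rounded to 0.1. Read totals were not used here, so depth is unknown and the spread between animals is the only measure of precision. The median over genes was 10.2 to 11.2 in every animal, but the 18S ribosomal RNA gene Rn18s-rs5 ranged from 18295 to 817780, and 8 animals had values above 200000: 2 at 14 dpi, 4 at 28 dpi and 2 at 42 dpi. None were in the sham, 4 or 7 dpi groups, so ribosomal RNA moved with the late groups. All 12 neuron, 10 astrocyte, 10 oligodendrocyte and 10 microglia marker genes on the lists were measured, but these cell types occur throughout the central nervous system and the table held expressed genes, so this does not check the label spinal cord. Each sample was 1 animal, and p-values measure the spread between animals.

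In sham animals the members were expressed at very different levels. Per kilobase of the longest coding transcript (GENCODE M21), Bcan, a lectican of the nervous system, was highest at 55.6 ± 2.31 (SD, n = 5) CPM per kilobase. It was followed by Hapln4 at 35.0 ± 2.13, Ptprs at 31.1 ± 1.73 and Hapln2 at 29.0 ± 4.24, whose animals overlapped between neighbours in this order. Ncan at 11.5 ± 1.18, Tnr at 8.97 ± 0.889 and Acan at 5.16 ± 0.212 came next, each separated from the gene above it. Hapln1 at 4.76 ± 0.258 overlapped Acan, and Vcan was lowest at 2.45 ± 0.431. Over the union of all exons the mean of Ptprs was 14.2 CPM per kilobase, since its exons add up to 14990 bases against 6855 in the longest coding transcript, so its place in the order depends on the transcript used. Vcan overlaps the antisense gene Gm4117, whose value was 61.9 to 172.5, and without strand information reads of the overlap cannot be told apart.

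Each stroke group was compared with sham in 1 limma fit of log2(value + 0.5) over all animals, with Benjamini-Hochberg adjustment over the 16995 genes. The question was at which times the net genes of the denervated tissue differ from those of sham animals. Significantly differentially expressed genes (SDEGs) also had to exceed a 1.5-fold change, and 0 of 9 members did so at any time. Without the fold limit, 3 members were higher and 1 was lower at 28 dpi, and none passed at the other 4 times. At 28 dpi 24.9% of all genes had an adjusted p under 0.05, 11.9% being higher and 13% lower, and 4.64% were SDEGs, and the 4 of 9 members stand beside these shares. Over the 6 groups together, 5 of 9 members (Acan, Tnr, Ncan, Hapln2 and Ptprs) passed the moderated F test, as did 31.6% of all genes. Acan ranked 118th of 16995 in that test (adjusted p = 0.000368, limma) and Tnr 230th (adjusted p = 0.000535). The comparisons with sham share the same 5 sham animals.

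**Figure D1:**
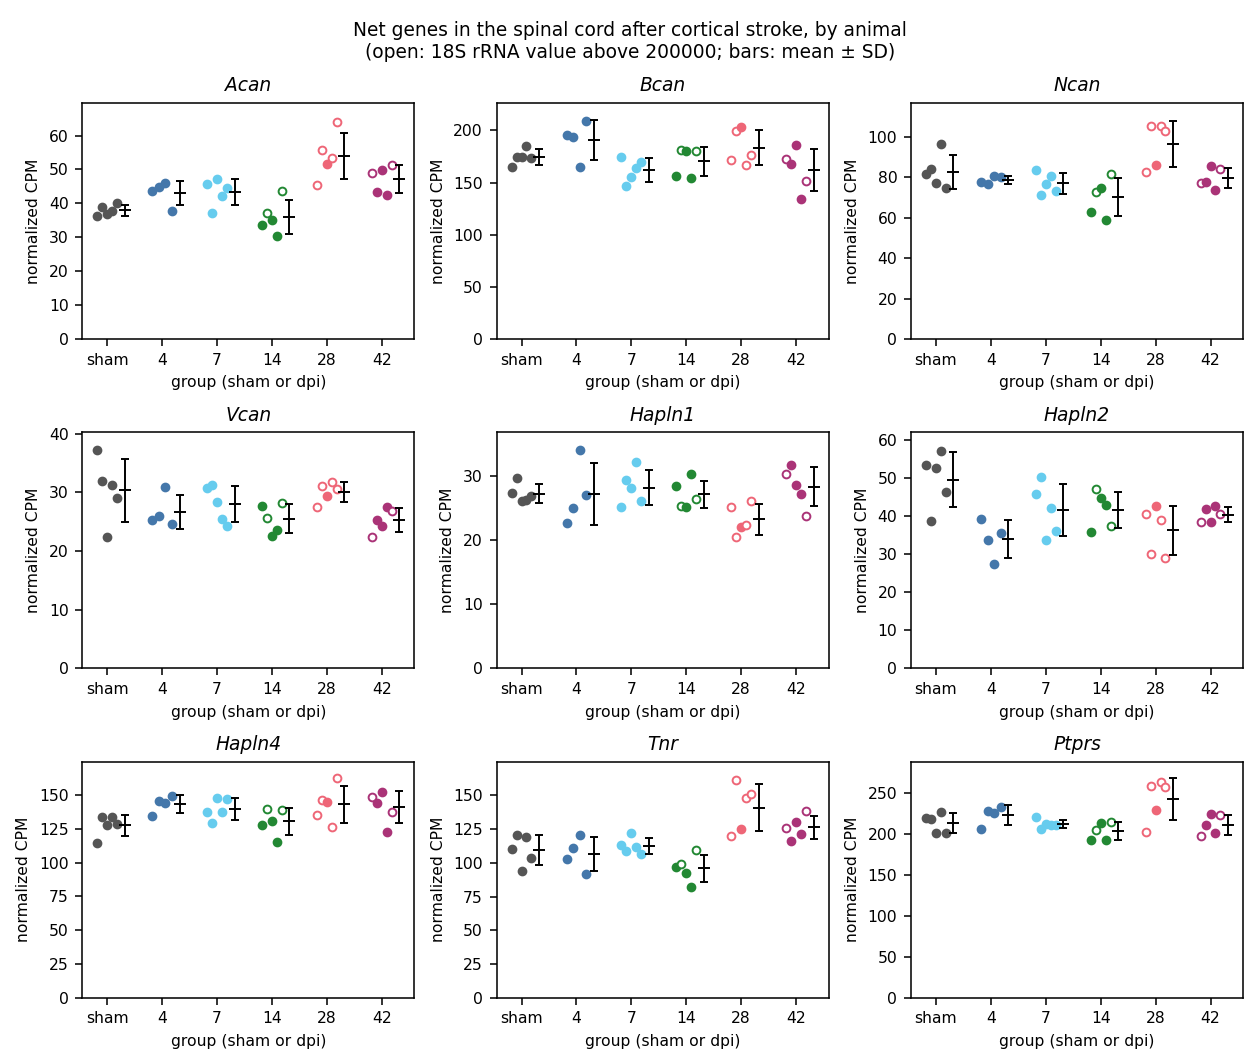
Normalized CPM of the 9 net genes (y axis) in each animal by group (x axis, sham or dpi), with mean ± SD as bars and animals with an Rn18s-rs5 value above 200000 as open circles. All 5 Acan values at 28 dpi (45.4 to 64.0) and at 42 dpi (42.4 to 51.3) lie above the sham range of 36.2 to 40.0. All Hapln4 values at 4 dpi (134.4 to 149.6) lie above sham (114.8 to 134.1), and the remaining genes overlap sham at every time.

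Acan, which encodes aggrecan, the lectican most typical of mature nets, was higher than in sham at 28 dpi. Its values in sham animals were 36.2, 36.8, 37.8, 39.0 and 40.0 CPM. At 28 dpi they were 45.4, 51.5, 53.3, 55.7 and 64.0, and at 42 dpi 42.4, 43.4, 49.1, 49.9 and 51.3. All animals of both late groups were above all sham animals. Acan was 1.41-fold higher at 28 dpi, a log2 fold change of 0.49 ± 0.09 (SE, 95% CI 0.32 to 0.67, adjusted p = 0.00139, limma). At 42 dpi the log2 fold change was 0.31 (95% CI 0.13 to 0.48) with an adjusted p of 0.113, which did not pass. At 14 dpi the values were 30.4, 33.6, 35.0, 37.2 and 43.7, on both sides of the sham range, with a log2 fold change of -0.09 (95% CI -0.26 to 0.09). The separation of the groups without overlap held for 9.9% of all genes at 28 dpi and 3.31% at 42 dpi, and for Acan alone of the 9 members in each of these comparisons. The Acan call at 28 dpi held without each of the 10 animals in turn (adjusted p at most 0.00782). With log2 Rn18s-rs5 as a covariate it was lost, with a log2 fold change of 0.40 and an adjusted p of 0.0573. In the 28 dpi animal with a low Rn18s-rs5 value (A4-1), Acan was 51.5, above every sham animal, and a fit of animals up to 200000 gave 0.44 with an adjusted p of 0.135 from that 1 animal at 28 dpi, assumed to vary like the other groups.

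Ncan, which encodes neurocan, a lectican of developing and injured tissue, was 74.5, 77.1, 81.6, 84.0 and 96.3 CPM in sham and 82.5, 85.9, 103.0, 105.2 and 105.5 at 28 dpi. Of the 28 dpi animals, 3 were above all sham animals. The log2 fold change of 0.22 (95% CI 0.05 to 0.39) had an adjusted p of 0.0503 (limma), just over the limit, and the call was made in 8 of 13 other settings, in 1 of them, the equal sum with ribosomal RNA, in the other direction. With Rn18s-rs5 as a covariate the log2 fold change was 0.09 (adjusted p = 0.608), and in animals with Rn18s-rs5 up to 200000 it was 0.06 (adjusted p = 0.876). Bcan ranged from 164.9 to 185.3 in sham and from 167.3 to 203.3 at 28 dpi, with a log2 fold change of 0.07 (95% CI -0.09 to 0.23, adjusted p = 0.535). Vcan, the versican gene expressed by oligodendrocyte precursors among other cells, had values of 22.4 to 37.2 in sham and 27.5 to 31.7 at 28 dpi. Its log2 fold change was 0.00 (95% CI -0.20 to 0.20, adjusted p = 0.991), and all 5 animals at 28 dpi lay within the sham range.

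Of the 3 link proteins, Hapln2 alone passed the test against sham. It encodes Bral1, a link protein made by oligodendrocytes and found at nodes of Ranvier. Its values were 38.7, 46.4, 52.6, 53.6 and 57.1 CPM in sham, 27.5, 33.7, 35.7 and 39.2 at 4 dpi, and 29.0, 30.0, 39.0, 40.7 and 42.8 at 28 dpi. At 4 dpi 3 of 4 animals and at 28 dpi 2 of 5 were below every sham animal, and the lowest sham animal (A11-4) reached into both groups. Hapln2 was lower at 28 dpi, with a log2 fold change of -0.45 ± 0.12 (SE, 95% CI -0.69 to -0.21, adjusted p = 0.00777, limma), and this call held without each animal in turn. With log2 Rn18s-rs5 as a covariate the call was lost at a value of -0.40 (adjusted p = 0.128), and in animals with Rn18s-rs5 up to 200000, with 1 left at 28 dpi, the value was -0.20 (adjusted p = 0.681). At 4 dpi the log2 fold change was -0.54 (95% CI -0.79 to -0.28) with an adjusted p of 0.0904, and without sham animal A11-4 it was -0.62 with an adjusted p of 0.0460. At 7, 14 and 42 dpi the log2 fold changes were -0.25, -0.24 and -0.28, with adjusted p of 0.840, 0.429 and 0.248.

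Oligodendrocyte markers were lower at 28 dpi, as was Hapln2, but their time courses differed. Beside log2 fold changes of -0.54, -0.45 and -0.28 for Hapln2 at 4, 28 and 42 dpi, the marker medians were -0.22, -0.36 and -0.35. The summed level of the 10 marker genes was 6520 to 9673 CPM in sham and 4694 to 6884 at 28 dpi. Of these markers 6 of 10 were lower and none higher, beside 13% and 11.9% of all genes. Among them Cldn11, a tight junction gene of myelin, fell by 0.58 on the log2 scale, and the myelin protein genes Mobp and Mog fell by 0.47 and 0.44. Fewer cells of a type and less RNA per cell cannot be told apart in bulk tissue. Within groups, after subtraction of the group means, Hapln2 followed the mean log2 level of these markers over the 29 animals with Pearson's r = 0.664 (permutation p = 0.00182, adjusted over 54 relations of members with marker lists and Rn18s-rs5 p = 0.0491) and Spearman's rho = 0.674 (p = 0.00095, adjusted p = 0.0256). Without the 2 animals farthest from the median of the markers r was 0.617, and in the 21 animals with low Rn18s-rs5 it was 0.837. No r was calculated for the animals with high Rn18s-rs5 alone. Of the 4 such animals at 28 dpi, A3-1 and A4-4 went with the relation. A3-3 (markers 0.06, Hapln2 -0.25, minus group mean) and A4-3 (markers -0.28, Hapln2 0.12) went against it. Hapln2 also followed the astrocyte markers (r = 0.719, adjusted permutation p = 0.0243, rho = 0.718, adjusted p = 0.0189, r = 0.663 without the 2 farthest animals). With the oligodendrocyte precursor markers r was 0.588 (adjusted permutation p = 0.0905), rho was 0.620 (adjusted p = 0.0495), and r was 0.551 without the 2 farthest animals and 0.852 in the 21 animals with low Rn18s-rs5. These values share the normalization of each animal, and the part of these cell types in the lower Hapln2 was not tested.

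**Figure D2:**
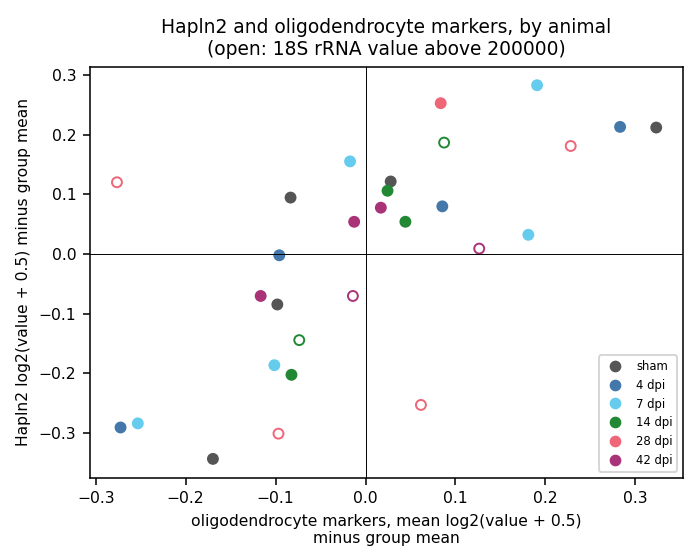
Hapln2 log2(value + 0.5) (y axis) against the mean log2(value + 0.5) of 10 oligodendrocyte markers (x axis), both minus their group mean, for 29 animals coloured by group and open where Rn18s-rs5 was above 200000. Animals low in the markers tended to be low in Hapln2 (r = 0.664, and 0.837 in the filled points alone). The open 28 dpi points A3-3 (markers 0.06, Hapln2 -0.25) and A4-3 (markers -0.28, Hapln2 0.12) went the other way. The open 28 dpi points A3-1 and A4-4 went with it.

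Hapln1, which encodes the link protein needed for compact nets, was 26, 26.3, 26.8, 27.3 and 29.7 CPM in sham and 20.4, 22.0, 22.3, 25.2 and 26.1 at 28 dpi. The highest 28 dpi animal overlapped the lowest sham animal, and the other 4 were below the sham range. The log2 fold change was -0.23 (95% CI -0.42 to -0.04, adjusted p = 0.0621, limma) and did not pass, while it did in 3 of 13 other settings, among them the label number as a random block (-0.23, adjusted p = 0.0456) and the gene span correction (-0.29, adjusted p = 0.0206). Hapln4, the link protein that pairs with brevican around inhibitory synapses, was 114.8, 128.0, 128.5, 133.4 and 134.1 in sham and 134.4, 144.4, 145.8 and 149.6 at 4 dpi. All 4 animals at 4 dpi were above sham, the lowest of them barely, and 1.7% of all genes separated in this way there. The log2 fold change was 0.17 (95% CI 0.02 to 0.31) with an adjusted p of 0.808, and at 28 dpi it was 0.16 (95% CI 0.02 to 0.30) with an adjusted p of 0.0776, while it passed under median centring (0.19, adjusted p = 0.0477), the gene span correction (0.22, adjusted p = 0.0213) and, in the other direction, the equal sum with ribosomal RNA (-0.63, adjusted p = 0.0270).

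Tnr, which encodes tenascin-R, a glycoprotein made mainly by oligodendrocytes and some neurons, was 94.2, 103.9, 110.2, 118.9 and 120.3 CPM in sham. At 28 dpi it was 119.7, 125.3, 147.8, 150.7 and 161.1, and at 42 dpi 116.1, 121.3, 125.9, 130.3 and 138.5. In each late group 4 of 5 animals were above every sham animal. Tnr was higher at 28 dpi by a log2 fold change of 0.36 ± 0.08 (SE, 95% CI 0.19 to 0.53, adjusted p = 0.00431, limma) in all 10 fits that left out an animal, while at 42 dpi 0.21 (95% CI 0.04 to 0.38) had an adjusted p of 0.236. Tnr went in the opposite direction to the oligodendrocyte markers and Hapln2. After subtraction of a trend on gene span, which matters for a gene of 407961 bases, the log2 fold change was 0.21 (adjusted p = 0.0156). With Rn18s-rs5 as a covariate it was 0.27 (adjusted p = 0.134), and in animals with Rn18s-rs5 up to 200000 it was 0.20 (adjusted p = 0.50).

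Ptprs, the receptor for chondroitin sulfate, was 200.4, 200.4, 217.5, 219.3 and 226.7 CPM in sham and 202.7, 228.6, 257.2, 257.6 and 263.5 at 28 dpi. Of the 28 dpi animals 4 were above the sham range and 1 (A3-1) was at its lower end. Ptprs was higher at 28 dpi by a log2 fold change of 0.18 ± 0.06 (SE, 95% CI 0.05 to 0.31, adjusted p = 0.0354, limma). Unlike those of Acan, Tnr and Hapln2, this call depended on single animals. It was lost without sham animal A12-1 (adjusted p = 0.101) or A12-3 (0.0924), without 28 dpi animal A3-3 (0.106), A4-3 (0.108) or A4-4 (0.0902), and with the gene span correction (0.0860), without a mean trend (0.0503) or with the 2 groups alone (0.133). With Rn18s-rs5 as a covariate the log2 fold change was 0.13 (adjusted p = 0.320), in animals with Rn18s-rs5 up to 200000 it was 0.10 (adjusted p = 0.642), and with the equal sum that includes ribosomal RNA it was -0.61 (adjusted p = 0.0313).

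**Figure D3:**
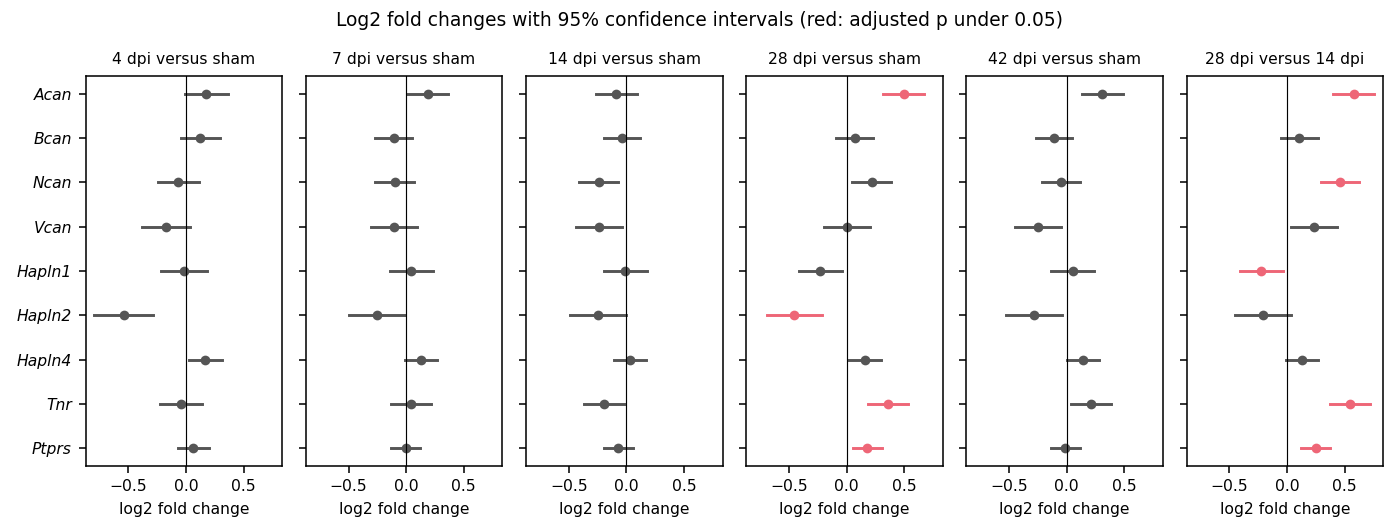
Log2 fold change (x axis) of each net gene (y axis) with its 95% confidence interval in 6 comparisons, red where the adjusted p was under 0.05 (limma). At 28 dpi versus sham Acan, Tnr and Ptprs lie to the right and Hapln2 to the left, and between 14 and 28 dpi Acan (0.58), Tnr (0.55), Ncan (0.46) and Ptprs (0.25) lie to the right.

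The animals at 28 dpi were also compared with those at 14 dpi, the preceding time. Acan, Ncan, Tnr and Ptprs had their lowest group means at 14 dpi. Between 14 and 28 dpi 4 members rose and 1 fell, against a background of 43% of all genes with an adjusted p under 0.05, 21% higher and 21.9% lower, and 11.8% SDEGs. Acan rose from 35.98 ± 4.97 (SD, n = 5) to 53.98 ± 6.78 CPM, a log2 fold change of 0.58 ± 0.09 (SE, adjusted p = 2.5e-05, limma), just short of the 0.585 that the fold limit needs. Tnr rose from 82.1, 92.2, 96.8, 99.4 and 109.2 by 0.55 ± 0.08 (adjusted p = 3.13e-05), Ncan from 58.9, 62.7, 72.7, 74.8 and 81.6 by 0.46 ± 0.08 (adjusted p = 9.67e-05), and Ptprs from 191.8, 191.9, 204.2, 213.1 and 213.9 by 0.25 ± 0.06 (adjusted p = 0.00219). The 28 dpi animals were all above the 14 dpi animals for Acan, Ncan and Tnr, 3 of 9 members, and such separation held for 22% of all genes. Hapln1 fell from 25.2, 25.3, 26.4, 28.4 and 30.2 by 0.22 on the log2 scale, with an adjusted p of 0.0494 that was over the limit in 6 of 10 fits without 1 animal. Vcan, at 22.5 to 28.2 in the 14 dpi animals, had a log2 fold change of 0.24 with an adjusted p of 0.0503, and passed in 6 of 13 other settings. With Rn18s-rs5 as a covariate Acan (0.55, adjusted p = 9.11e-05), Tnr (0.52, 0.000109), Ncan (0.41, 0.000311) and Ptprs (0.23, 0.00544) kept their calls, and both groups held animals with high Rn18s-rs5, 2 of 5 and 4 of 5. At 14 dpi these were A5-3 and A6-3, the 2 highest animals for Acan (37.2 and 43.7) and Tnr (99.4 and 109.2). A6-3 was also highest for Ncan (81.6) and Ptprs (213.9), where A5-3 was in the middle. Within groups r with log2 Rn18s-rs5 was 0.307 for Acan, 0.278 for Tnr, 0.420 for Ncan and 0.238 for Ptprs. None of these had an adjusted permutation p under 0.05. Hapln1 lost its call with the covariate (-0.20, adjusted p = 0.0935) and passed in 5 of 13 other settings. With the gene span correction Tnr was 0.31 (adjusted p = 0.000245) and Ptprs 0.16 (adjusted p = 0.0202). In animals up to 200000, with 1 left at 28 dpi that is assumed to vary like the other groups, Acan had a log2 fold change of 0.64 (adjusted p = 0.0253), Tnr 0.47 (0.0593), Ncan 0.40 (0.0885) and Ptprs 0.20 (0.230).

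From 28 to 42 dpi no member passed, where 1.94% of all genes did. Ncan had a log2 fold change of -0.27 (95% CI -0.43 to -0.10, adjusted p = 0.0716, limma), its 42 dpi values being 73.9, 77.1, 77.4, 84.3 and 85.8 CPM. Ptprs had -0.19 (adjusted p = 0.0837), with 42 dpi values of 197.0 to 223.5 beside the sham range of 200.4 to 226.7. With the first number of the animal label, which 28 dpi A3-1 and A3-3 share with 42 dpi A3-4, as a random block, Ncan (-0.27, adjusted p = 0.0423) and Ptprs (-0.20, adjusted p = 0.0499) passed, as did 4.39% of all genes, at an estimated correlation within label numbers of -0.0441. Hapln1 had 0.28 (95% CI 0.09 to 0.47, adjusted p = 0.0837), its 42 dpi values of 23.8, 27.2, 28.6, 30.3 and 31.7 lying around the sham range again. Acan had -0.19 (95% CI -0.36 to -0.01, adjusted p = 0.211). No member separated the 2 groups without overlap, and 2.56% of genes did.

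No member passed against sham at the early times, when few genes did. Among all genes, 0.106% had an adjusted p under 0.05 at 4 dpi, 0.0294% did so at 7 dpi and 0.00588% at 14 dpi, and at the late time of 42 dpi the share was 0.0235%, beside 0 of 9 members at each of these times. Unadjusted p values under 0.05 were found for 2 members each at 4 and 7 dpi, for 4 at 14 dpi and for 5 at 42 dpi, beside 5.14%, 5.84%, 11.6% and 14.8% of all genes. Acan was 37.2, 42.3, 44.4, 45.7 and 47.3 CPM at 7 dpi, 4 of 5 above sham, with a log2 fold change of 0.19 (95% CI 0.01 to 0.36, adjusted p = 0.840). At 14 dpi Ncan, Hapln2 and Vcan had log2 fold changes of -0.24, -0.24 and -0.23, Ncan with the smallest adjusted p (0.387, limma, 95% CI -0.41 to -0.07) and 3 of 5 animals below sham. No member separated from sham at 7 or 14 dpi, where 0.971% and 2.07% of genes did.

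The make-up of the 2 families does not depend on how an animal was scaled, and is given as a description. Acan was 10.8 to 12.6% of the summed lecticans in sham, 13.0 to 15.4% at 7 dpi, 11.2 to 13.1% at 14 dpi, 13.9 to 17.1% at 28 dpi and 13.9 to 16.3% at 42 dpi. All animals at 7, 28 and 42 dpi were above all sham animals, while those at 4 dpi (10.8 to 14.3%) and 14 dpi overlapped them. Bcan made up the largest part, with a mean of 53.6% in sham and 50.5% at 28 dpi. Hapln2 was 19.2 to 27.4% of the summed link proteins in sham, 13.4 to 19.97% at 4 dpi and 13.3 to 20.7% at 28 dpi, where 1 sham animal overlapped the stroke animals. Hapln4 was 58.7 to 66.1% in sham, 68.5 to 71.3% at 4 dpi and 67.2 to 74.7% at 28 dpi, with no overlap at either time. The shares of a family are not independent, so a lower Hapln2 share raises the Hapln4 share. The Hapln4 values themselves had log2 fold changes of 0.17 at 4 dpi and 0.16 at 28 dpi that did not pass.

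**Figure D4:**
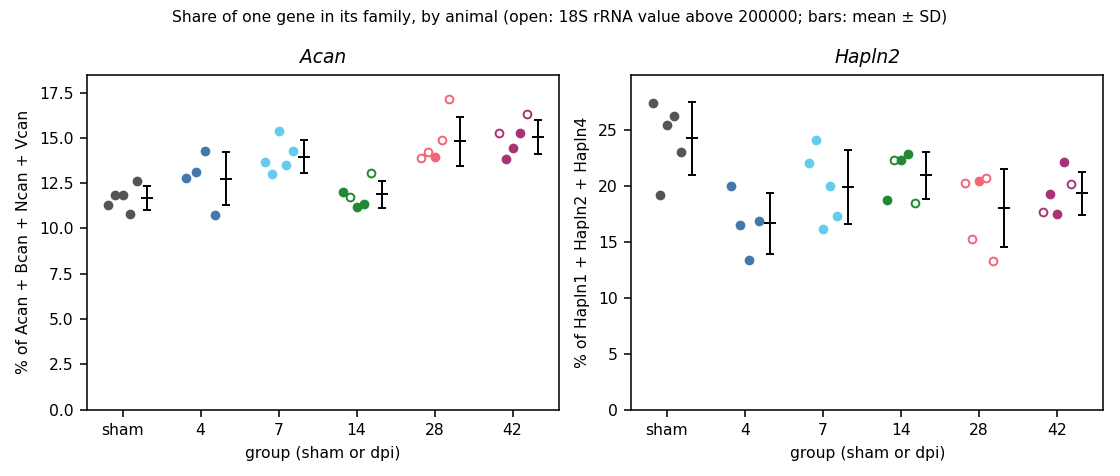
Share of Acan in the summed lecticans and of Hapln2 in the summed link proteins (y axes, percent) in each animal by group (x axis), with mean ± SD as bars and animals with an Rn18s-rs5 value above 200000 as open circles. The Acan share of the 28 and 42 dpi animals (13.9 to 17.1% and 13.9 to 16.3%) lies above the sham animals (10.8 to 12.6%), in open and filled points alike.

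Within groups, several pairs of members varied together from animal to animal. Over 29 animals, after subtraction of group means and as a description, Pearson's r was 0.841 between Ncan and Ptprs, 0.737 between Acan and Tnr, 0.714 between Ncan and Tnr, 0.639 between Tnr and Ptprs, 0.637 between Acan and Ncan and 0.506 between Acan and Ptprs, which rose between 14 and 28 dpi. It was also high in pairs with a member that did not pass there, 0.636 between Bcan and Hapln4, 0.630 between Acan and Hapln4 and 0.594 between Vcan and Tnr. Hapln2 ran against Acan (-0.552), Tnr (-0.534) and Hapln4 (-0.485). The neighbouring pairs Vcan and Hapln1 (0.0905) and Bcan and Hapln2 (0.087) showed little, and Ncan and Hapln4 had 0.418. All of these values share the normalization of their animal. Among 15497 genes with a mean value of at least 1, members left out, Tnr was most like Tmem178b (0.931), the NMDA receptor subunit gene Grin2b (0.931) and the ankyrin gene Ank2 (0.919). Hapln4 was most like Pacsin1 (0.921), Snph (0.886) and Cbx6 (0.861), and Acan most like Plekha6 (0.853), Ankrd52 (0.823) and the synaptic vesicle gene Sv2c (0.820). Hapln2 was most like Cyp27a1 (0.858), the transferrin gene Trf (0.840) and Pcbp4 (0.816). The 3 nearest genes of Bcan (Vps37c, Zyx and Dbn1), Ncan (Clasp1, Shc3 and Sorl1), Vcan (Jmy, Macf1 and Pgap1), Ptprs (Trio, Myo18a and Tfdp2) and Hapln1 (Arhgef3, Nkrf and Gprasp2) had r between 0.727 and 0.848.

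Of 20 other matrix components and receptors, 5 were higher and 1 was lower at 28 dpi than in sham, beside 11.9% of all genes higher and 13% lower, with a median log2 fold change of 0.08 beside 0.00 over all genes. They included the hyaluronan receptor gene Hmmr (0.50, adjusted p = 0.0067, limma), Ptprf, a phosphatase of the same family as Ptprs (0.30, adjusted p = 0.0238), Ptprz1, which encodes phosphacan (0.22, adjusted p = 0.0304), and the syndecan gene Sdc4, which was lower (-0.25, adjusted p = 0.0310). Of 21 genes of chondroitin sulfate synthesis and sulfation, Xylt1, which starts the sugar chain, was higher (0.42, adjusted p = 0.00199), B3gat3, which completes its linker, was lower (-0.25, adjusted p = 0.0440), and the rest did not pass, 2 of 21 being under the 24.9% of all genes. Of 19 matrix proteases, inhibitors and hyaluronidases, 2 were higher, the membrane protease gene Mmp15 (0.23, adjusted p = 0.0283) and the hyaluronidase gene Hyal1 (0.29, adjusted p = 0.0381), and the plasminogen activator gene Plat was lower (-0.26, adjusted p = 0.0342), 3 of 19 being also under that share. None of the genes on these 3 lists passed at 4, 7, 14 or 42 dpi against sham. From 28 to 42 dpi Mmp15 (-0.32, adjusted p = 0.0331) and Cspg4, the NG2 proteoglycan gene of oligodendrocyte precursors, which stands on 2 of the lists (-0.50, adjusted p = 0.0358), fell. Between 14 and 28 dpi 7 of 20, 1 of 21 and 5 of 19 genes on the lists rose and 1, 2 and 1 fell, beside 21% and 21.9% of all genes, with Xylt1 at the smallest adjusted p (0.61, adjusted p = 1.71e-05).

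Markers of other cell types were counted in the same way. The counts at 28 dpi stand beside 11.9% of all genes higher and 13% lower. Of 12 markers of net-bearing neurons, 2 were higher, among them the potassium channel gene Kcna1 (0.28, adjusted p = 0.0319, limma), and 1, the parvalbumin gene Pvalb, was lower (-0.46, adjusted p = 0.0334). Their summed level was 2206 to 2994 CPM in sham and 2430 to 2927 at 28 dpi. Of 12 general neuron markers 1 was higher (Slc6a5, 0.30) and 2 were lower (Snap25, -0.30, and Elavl4, -0.19), with summed levels of 4467 to 6229 and 4426 to 4998. Of 10 astrocyte markers 2 were higher, among them Sox9 (0.70, adjusted p = 0.00139), and 4 lower, among them Gjb6 (-0.44), Aqp4 (-0.26) and Aldoc (-0.28). Of 8 oligodendrocyte precursor markers 3 were lower (Gpr17, Neu4 and Lhfpl3). Of 10 microglia markers 1 was higher (Cx3cr1, 0.34), of 10 endothelial and mural markers 2 (Cdh5, 0.54, and Flt1, 0.36), of 8 meningeal and fibroblast markers 2 (Pdgfrl and Col1a1, 0.61 each), and of 3 pituitary hormone genes none. At 4 dpi, where 0.106% of all genes passed, 2 of 10 microglia markers, Csf1r (0.74) and C1qc (1.09), and 1 of 10 astrocyte markers, Gfap (1.18), were higher and none on these lists was lower. Of the 54 relations within groups, none of a member other than Hapln2 had an adjusted permutation p under 0.05. Acan had r = -0.415 with the oligodendrocyte markers (adjusted permutation p = 0.268) and -0.269 with the precursor markers (adjusted permutation p = 0.486). In the 21 animals with low Rn18s-rs5 these were -0.538 and -0.700. The part of these cell types in the values of the net genes was not tested.

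The scaling of the animals set the level against which the members were read. With values rescaled to an equal sum over all genes, ribosomal RNA included, all genes shifted by a median of -0.73 on the log2 scale, so that signs there follow the shift. Relative to the median gene, Acan (-0.29) and Tnr (-0.43) were above and Hapln2 (-1.23) below. When the sum left out the 11 genes with any value above 10000, Acan was 0.50 (adjusted p = 0.00133, limma), Tnr 0.36 (0.00349), Hapln2 -0.45 (0.00958), Ptprs 0.18 (0.0284) and Ncan 0.22 (0.0369). With Rn18s-rs5 as a covariate 0 of 9 members and 0 of 16995 genes passed at 28 dpi against sham (limma, 22.1% of all genes with an unadjusted p under 0.05), where the high values lie in 4 of 5 animals at 28 dpi and in none of the sham animals.

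**Figure D5:**
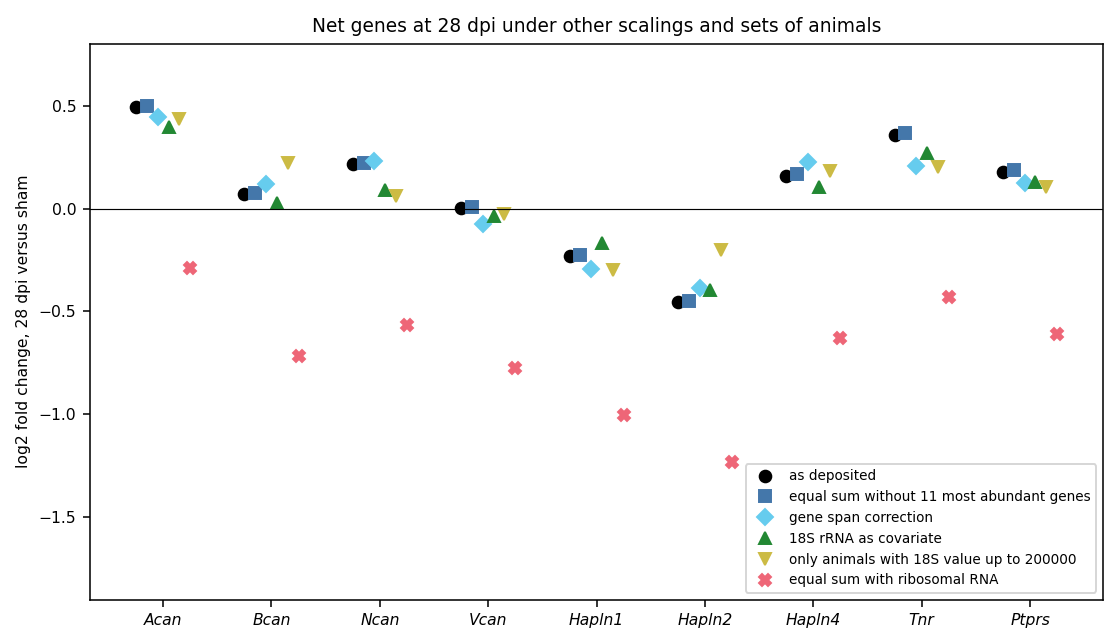
Log2 fold change at 28 dpi versus sham (y axis) of each net gene (x axis) under 6 treatments of the data, each a symbol. Black circles show the values as deposited, and the red crosses, from an equal sum that includes ribosomal RNA, lie below them for every gene (Acan 0.49 and -0.29), while the other 4 treatments gave Acan 0.40 to 0.50, without a call for the covariate (0.40) and for the animals up to 200000 (0.44).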

How the data were processed

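Total RNA of the C5/C6 intermediate laminae was depleted of ribosomal RNA, made into TruSeq v2 libraries and sequenced single-end. The authors quantified reads on mm10 with SALMON and Tximport, normalized them with edgeR (the submitters' processing notes name edgeR 3.14.0 and R 3.4.1) and removed genes of low expression. The deposited score is this normalized CPM, rounded to 0.1 by the authors, for 16995 genes. It is not a count, so no count test was used, and depth is unknown. The authors' own comparison columns (fold change, test statistic, p-value, adjusted p and call for each time against Ctrl) were not used. Groups came from the sample titles, and 0 columns belonged to other samples.

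Values were analysed as log2(value + 0.5), which understates changes of low genes, in 1 limma 3.58.1 model with a mean trend over the 6 groups, R 4.3.3. To be an SDEG, a gene had to change by more than 1.5-fold with an adjusted p under 0.05. Figures and relations used Python 3.11.15 with numpy 2.4.6, scipy 1.17.1 and pandas 2.3.3, relations with 100000 two-sided permutations within groups. Tested on simulated data for 28 dpi versus sham over 16995 genes with 200 changed genes each, the fit recovered 56.5% at a log2 change of 0.5, 83.0% at 0.8 and 99.5% at 1.5, with 12, 12 and 9 false calls.

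The net genes and the other lists were chosen with earlier results of these data known. All measured net genes are named, with up to 4 genes of each other list (smallest adjusted p, 28 dpi versus sham first) and the 3 genes most like each net gene. Alternatives were 3 other normalizations, pseudocounts of 1 and 0.1, a mean value of at least 1, no trend, 2 groups only, the label unit as a random block, Rn18s-rs5 as a covariate, a gene span correction and leaving out each animal. Animals with Rn18s-rs5 up to 200000 and an equal sum without the most abundant genes were chosen after the values were seen. Has2 was not analysed here, and some genes of the marker lists are not reported here by name.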

Additional observations from a re-analysis of the deposited data

Results flagged for a closer look

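Over 54 sets of animals (9 net genes in 6 groups), 0 held an animal whose gap to its neighbour exceeded Dixon's 95% critical value, where chance would give about 1 in 20. Differences between 2 stroke times were found for 5 net genes in the direct comparison of 28 with 14 dpi (limma, adjusted over all genes). The log2 differences were 0.58 for Acan, 0.46 for Ncan, 0.55 for Tnr, 0.25 for Ptprs and -0.22 for Hapln1. For Acan, Ncan and Tnr all 5 animals at 28 dpi lay above all 5 at 14 dpi, for Ptprs 4 of 5, and for Hapln1 3 of 5 lay below. The share of all genes with an adjusted p under 0.05 in this comparison was 43%.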

How the results depend on the processing

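Acan, Tnr and Hapln2 at 28 dpi against sham kept direction and call in each fit without 1 animal and under quantile normalization, median centring, other pseudocounts, the filter, no trend, 2 groups only, the random block, the span correction and the equal sum without the most abundant genes. They kept direction but lost the call with Rn18s-rs5 as a covariate (0.40, 0.27 and -0.40) and in animals with Rn18s-rs5 up to 200000 (0.44, 0.20 and -0.20), and Acan and Tnr lost it with an equal sum that includes ribosomal RNA. That last scaling gave at 28 dpi -0.29 for Acan, -0.72 for Bcan, -0.57 for Ncan, -0.77 for Vcan, -0.63 for Hapln4, -0.43 for Tnr and -0.61 for Ptprs, and -0.017 for Ptprs between 14 and 28 dpi, with 6 SDEGs and 7 members under the adjusted p at 28 dpi, 0 members between 14 and 28 dpi and 8 over the 6 groups, where 65.2%, 66.2%, 4.21% and 66.5% of all genes passed in turn. The sum holds Rn18s-rs5 itself, up to 817780. The covariate left 0 members at 28 dpi against sham. Animals up to 200000 left 0 there, 1 (also 1 SDEG) between 14 and 28 dpi and 0 over the 6 groups, with 1 animal at 28 dpi (0.0294%, 2.95%, 1.75% as SDEGs and 0.0647% of all genes). Between 14 and 28 dpi there was 1 SDEG under quantile normalization, a pseudocount of 0.1 and the equal sum without the most abundant genes, and 2 under median centring, where 9.94%, 14%, 11.8% and 12.4% of all genes were SDEGs. At 4 dpi 1 member (Hapln2) passed under median centring and 1 (Hapln2) under the span correction (0.153% and 0.159% of all genes). From 28 to 42 dpi 2 (Ncan and Ptprs) passed with the label number as a random block, as did 4.39% of all genes. The cause of these moves was not tested. Without 1 animal, members ranged from 0 to 1 at 4 dpi (1, also as SDEG, without sham A11-4, with 0.053% of all genes), SDEGs from 0 to 2 between 14 and 28 dpi (1 without A5-3, 2 without A6-3, A3-1 or A4-1, with 11.3% to 14.7% of all genes) and members from 0 to 3 from 28 to 42 dpi (3 without A3-1, 1 without A4-1, with 7.52% and 5.52% of all genes). Of 1440 single-gene values under all alternatives, 1303 kept direction and side, 36 lost and 40 gained a call, 53 moved and 8 reversed. Only 28 dpi A3-1 and A3-3 and 42 dpi A3-4 share a label number between groups, and each other label number lies within a single group. The animals were therefore not paired, and the random block was not a paired fit. Its estimated correlation was below zero (-0.0441), and from 28 to 42 dpi 4.39% of all genes passed with it and 1.94% without it. Depth is unknown, so the spread between animals alone limits these values.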
